A study of Bos taurus with 27 samples.

Results

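Abundance of DUXA and of other transcripts associated with embryonic genome activation was examined in bovine blastocysts. The members DUXA, ARGFX, LEUTX, KLF17, ZSCAN4 and KDM4E were picked by name. DUXA headed the list because its reads were already known to be concentrated in 1 blastocyst pool, and the question was whether that pool also held the other transcripts. Of the 6 symbols, 5 had a row among the 32637 genes of the count table, and KDM4E was skipped because no row bears that symbol. A gene was retained if it reached at least 1 count per 1000000 reads (CPM) in 12 pools, and 4 of the 5 members passed (DUXA, ARGFX, KLF17 and ZSCAN4). LEUTX did not pass.

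Data came from 27 pools, each made from the RNA of 2 blastocysts with stage score 7 (expanding or expanded) and quality score 1. Oocytes had been matured in vitro in the presence of fluid taken from preovulatory follicles, either more or less mature, and were then fertilized with semen of 1 bull. The labels do not give the treatment or the fertilization replicate of individual pools, so follicle maturity was not analysed here and the 27 pools were treated as 1 set. The paper lists DUXA as more abundant in blastocysts of the less mature fluid, as are LOC112441492, LOC100140788, TKDP1, LOC517884 and LYZ, named below. How far the spread among pools goes with treatment was not tested. Because each library mixes 2 embryos, a level is an average of both, and fewer cells with a transcript cannot be told apart from less of the transcript per cell.

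Reads on genes totalled between 10517606 and 44253564 per pool, with 14526367 in pool 9, and 3 reads corresponded to between 0.0678 and 0.285 CPM. Markers of blastocyst lineages were present. All 9 trophectoderm markers were retained, as were 7 of 8 epiblast markers and 4 of 7 hypoblast markers. The epiblast gene FGF4 and the hypoblast genes SOX17 and FOXA2 had a median of 0 CPM. Intervals given below are 95% Wilson intervals and cover counting error only, since reads were not counted as unique molecules.

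The early embryo starts development with transcripts stored by the oocyte, and its own genome is switched on after the first few cleavages. DUXA, ARGFX and LEUTX encode paired-like homeobox transcription factors known mainly from this window in human and cattle embryos. KLF17 encodes a Krüppel-like zinc finger factor of early embryos, ZSCAN4 a SCAN domain zinc finger protein of cleavage-stage embryos and telomere maintenance, and KDM4E a histone H3 lysine demethylase. By the blastocyst stage these genes are usually past their peak, while cells have separated into trophectoderm, epiblast and hypoblast.

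In the ARS-UCD2.0 assembly DUXA occupies positions 64398298 to 64403851 of chromosome 18. Its abundance was between 0.734 CPM (pool 6, 20 reads) and 109.7 CPM (pool 9, 1594 reads), with a median of 5.14 CPM. The interval in pool 9 was 104.5 to 115.3 CPM, and the next highest pool, pool 21, had 30.1 CPM with an interval of 28.1 to 32.2 CPM. The interval of pool 9 thus lay wholly above that of pool 21, but this gap is no test, because DUXA was picked for it. The intervals cover the counting of reads only, so they do not show how far a repeat library would differ. Pool 9 held 31.9% of the summed DUXA CPM. Without it, the other 26 pools still spread from 0.734 to 30.1 CPM, so DUXA varied widely among pools apart from pool 9. Pools 23, 36 and 13 followed pool 21 with 28.4, 25.4 and 22.9 CPM, while 26 of 27 pools had at least 1 CPM. The spread of DUXA, a standard deviation of 1.45 in log2(CPM + 1), was larger than that of 99.5% of retained genes. These levels are a description, since DUXA was chosen for this pattern.

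KLF17 was the only other member that peaked in pool 9. The gene spans positions 101935631 to 102039205 of chromosome 3. KLF17 abundance ranged from 0.570 CPM (pool 28, 6 reads) to 47.8 CPM (pool 9, 694 reads), with a median of 11.8 CPM. Pool 41 was second with 32.4 CPM. The interval in pool 9, 44.4 to 51.5 CPM, did not reach the interval of 30.0 to 35.0 CPM in pool 41. The standard deviation of KLF17 in log2(CPM + 1) was larger than that of 96.0% of retained genes. Over all 27 pools its upper quartile was 1.92 times its lower quartile, while that ratio was 5.24 for DUXA.

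ARGFX varied less than DUXA, and its high pools were partly the same. The gene spans positions 66079635 to 66087758 of chromosome 1. Its lowest level was 3.68 CPM (pool 31) and its highest 75.6 CPM (pool 12), with a median of 16.0 CPM. Pools 32, 21 and 23 followed with 57.3, 54.7 and 54.6 CPM, and pools 21 and 23 also ranked 2 and 3 in DUXA. Pool 9 ranked 8 of 27 with 34.2 CPM. ARGFX reached at least 1 CPM in all 27 pools.

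ZSCAN4 was the steadiest of the 4 retained members. Pool 14 was lowest with 3.87 CPM and pool 32 highest with 21.0 CPM, and the median was 11.1 CPM. Its highest pool was 5.43 times its lowest, compared with 149 times for DUXA, 83.7 times for KLF17 and 20.5 times for ARGFX. Pool 9 ranked 15 of 27 with 10.7 CPM, close to the median. The standard deviation of ZSCAN4 in log2(CPM + 1) was larger than that of 53.0% of retained genes, so it was ordinary in spread. A separate row, LOC112441492, has the gene ID that the RefSeq table names ZSCAN4, so no position is given for the ZSCAN4 row, and reads may be divided between the rows. LOC112441492, described after its values were seen, was between 2.49 and 23.1 CPM and ranked 3 in pool 9 with 15.4 CPM, a ratio of 2.35 to the median of the other pools. Both rows together ranked 6 in pool 9 with 26.1 CPM, a ratio of 1.41. The near-median level of ZSCAN4 in pool 9 therefore held for its own row and not for LOC112441492.

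**Figure D1:**
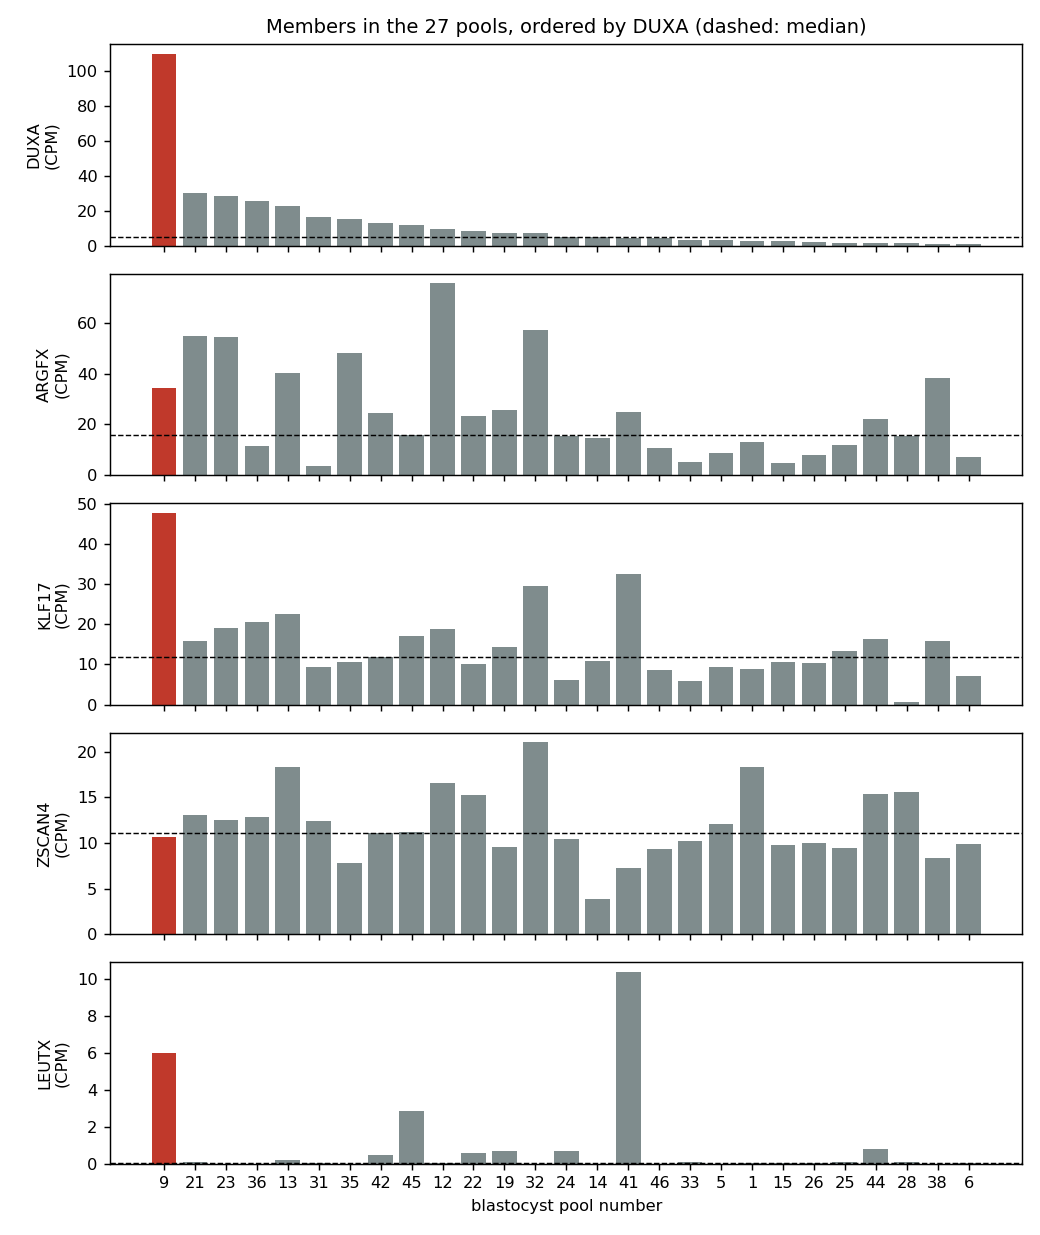
Abundance of DUXA, ARGFX, KLF17, ZSCAN4 and LEUTX (CPM, 1 panel per gene, separate axes starting at 0) in each of the 27 blastocyst pools, ordered from the highest to the lowest DUXA. Bars are single pools, pool 9 is red and the dashed line is the median. Pool 9 was highest for DUXA (109.7 CPM) and KLF17 (47.8 CPM), second for LEUTX (5.99 CPM), and near the median for ZSCAN4 (10.7 CPM).

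LEUTX, at positions 49326332 to 49335666 of chromosome 18, was nearly silent in most pools. It had no read in 8 pools and 3 reads or fewer in 18 pools, these included, and its median was 0.0675 CPM, under the level of 3 reads in every pool. Only 3 pools reached 1 CPM. Pool 41 had 10.4 CPM (214 reads, interval 9.11 to 11.9 CPM), pool 9 had 5.99 CPM (87 reads, interval 4.86 to 7.39 CPM) and pool 45 had 2.88 CPM (40 reads, interval 2.11 to 3.92 CPM). The 2 highest pools held 66.6% of the 452 LEUTX reads. Pools therefore fell into a few with LEUTX and many at or near 0, and no correlation over all pools was calculated for it.

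KDM4D, a histone demethylase gene of the same family as KDM4E, was sparse in a similar way. It is described because its values were seen to resemble those of LEUTX, and it did not pass the filter either. KDM4D had no read in 14 pools. It reached 1 CPM in 4 pools, with 7.54 CPM in pool 41 (interval 6.44 to 8.82 CPM), 3.58 CPM in pool 9 (2.73 to 4.69 CPM), 2.40 CPM in pool 23 (1.98 to 2.90 CPM) and 1.73 CPM in pool 45 (1.16 to 2.57 CPM). The 3 pools with the most LEUTX were thus among the 4 with the most KDM4D. Pool 41, the highest in both and second in KLF17, ranked 16 of 27 in DUXA with 4.52 CPM. DUXB, a further double homeobox gene, had 6 reads in all pools together.

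Whether pool 9 held more of the genome activation transcripts was examined as the ratio of its CPM to the median of the other 26 pools. This ratio was 21.8 for DUXA, 4.21 for KLF17, 2.18 for ARGFX and 0.956 for the ZSCAN4 row. Over all retained genes, 7.45% were at 2 or more times the median of the other pools in pool 9, and 7.37% had their highest value there. A single pool allows no test. Pool 9 was chosen as the pool with the highest DUXA, so the ratio of DUXA was fixed by that choice. KLF17 and ARGFX were also above a ratio of 2. Under the filter, LEUTX had 5.99 CPM in pool 9 against a median of 0.0579 CPM in the other pools. None of the 44 retained genes of a genome activation list, described next, was above a ratio of 2. Of its genes under the filter, KDM4D had 3.58 CPM in pool 9 against a median of 0 CPM in the other pools. The others with reads had less than 1 CPM in pool 9.

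A list of 70 other genes known from genome activation was examined in the same way. Of these, 53 had a row in the table and 44 were retained. Rows were matched by symbol or synonym, so a gene counted under another name was missed. PRAMEF12 had no row by this match, while the paper describes LOC517884 as PRAME family member 12. LOC517884 was not examined with the list. TPRX1, DUX4, TRIM43 and MBD3L2 were among those without a row, so the retained genes say nothing about them. None of the 44 was at 2 or more times the median of the other pools in pool 9, and 2 had their highest value there, NFYA (28.2 CPM, ratio 1.86) and DPPA2 (68.8 CPM, ratio 1.83). NFYA encodes a subunit of the CCAAT-binding factor NF-Y, and DPPA2 a chromatin factor of pluripotent cells. The next highest ratios were 1.71 for KDM4C, 1.36 for the H3K27 demethylase gene KDM6A and 1.31 for the cyclin gene CCNA1. The median ratio of the list was 0.747, compared with 0.951 over all retained genes.

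More of the listed genes were low in pool 9 than high. For 11 of the 44 genes (25.0%) pool 9 had the lowest value of all pools, which was so for 11.7% of retained genes. The examples that follow were picked with their values in view. The hypoblast and endoderm factor GATA6 had 19.5 CPM in pool 9 against a median of 211.6 CPM in the other pools, a ratio of 0.0921. The trophectoderm and epiblast factor KLF5 had 62.2 against 294 CPM, the chromatin remodeller SMARCA4 33.0 against 82.6 CPM, and the Hippo pathway factor TEAD4 6.54 against 18.1 CPM. At or below 0.5 times the median of the other pools were 10 of the 44 genes (22.7%), compared with 14.2% of retained genes.

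Maternal transcripts were also low in pool 9. The 9 retained oocyte markers had a median ratio of 0.338, and 7 of them were at or below 0.5, among them the zona pellucida genes ZP2 (0.338) and ZP4 (0.266) and the meiotic kinase gene MOS (0.209). The zona pellucida gene ZP3 (0.941) and the growth factor gene GDF9 (0.783) were the exceptions. Their list summed to 33.6 CPM in pool 9, rank 25 of 27, with a range of 29.7 to 235.8 CPM over pools. Among lineage markers, the trophectoderm list ranked 21 in pool 9 and the epiblast list 25. The hypoblast list ranked highest, through APOA1 alone at 1904 CPM, while the hypoblast factor HNF4A had a ratio of 0.204. Interferon tau transcripts were also highest in pool 9 (589 CPM, median over pools 40.8 CPM). The part of these differences in the DUXA level of pool 9 was not tested.

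**Figure D2:**
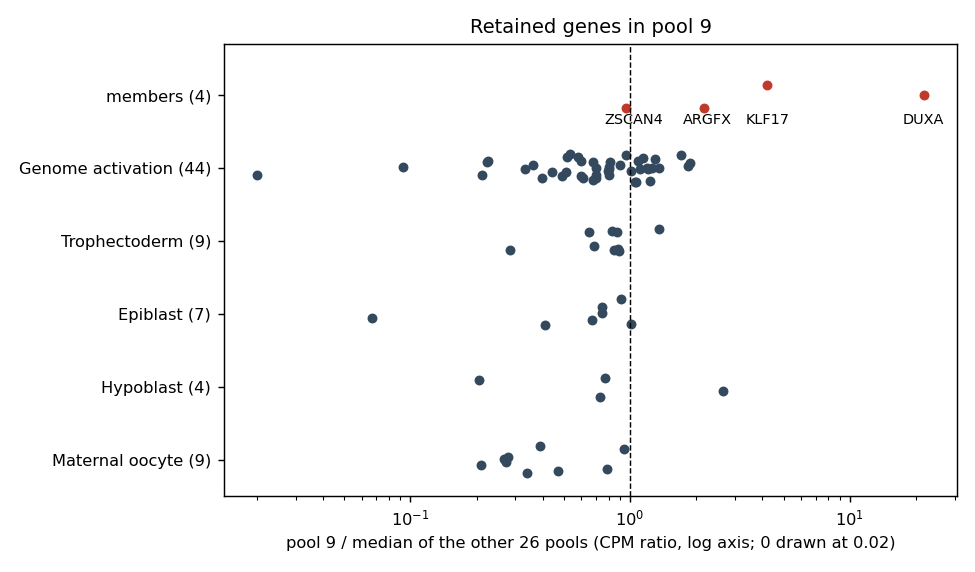
Ratio of the CPM in pool 9 to the median CPM of the other 26 pools (log axis) for the retained members and for retained genes of 5 lists, with the number of genes in brackets. Each point is a gene, points are spread vertically for visibility, the dashed line is a ratio of 1, and KHDC3L, with 0 reads in pool 9, is drawn at 0.02. DUXA (21.8) and KLF17 (4.21) lie to the right of all 44 genome activation genes, whose highest ratio was 1.86.

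The ratio placed DUXA second of all retained genes in pool 9. The highest was LOC789309, with 34.3 CPM against a median of 0.889 CPM in the other pools. It was followed after DUXA by LOC100140788 (18.5), the trophoblast Kunitz domain gene TKDP1 (17.3), LOC509761 (16.4), the chemokine receptor gene CCR7 (16.3), LOC100847415 (15.6), PYY2 (15.4), the interferon tau gene IFNT3 (15.2) and C9H6orf58 (14.5). LOC100847415 was higher in another pool (11.2 CPM) than in pool 9 (3.65 CPM), and the others peaked in pool 9. Reads of LOC genes and of TKDP1 and IFNT3 can be divided among near-identical copies, so their levels are uncertain.

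Over all 27 pools, DUXA ranks ran in the same direction as those of KLF17, ARGFX and ZSCAN4, but none of these relations passed after adjustment over all retained genes. Each of the 12309 other retained genes was tested against DUXA by Spearman correlation with 100000 permutations of the pools. At an adjusted p of 0.05, 0 genes passed (0%), both by Spearman and by Pearson correlation of log2(CPM + 1), and before adjustment 1014 genes (8.24%) were at or under 0.05 by Spearman and 1362 (11.1%) by Pearson. KLF17 had a rho of 0.494 (permutation p = 0.00954, adjusted p = 0.464) and an r of 0.555 (p = 0.00306, adjusted p = 0.231), which became 0.436 without pools 9 and 21. ARGFX had a rho of 0.471 (permutation p = 0.0146, adjusted p = 0.509) and an r of 0.449 (p = 0.0193, adjusted p = 0.346), which became 0.380 without the same pools. ZSCAN4 had a rho of 0.259 (permutation p = 0.189, adjusted p = 0.750) and an r of 0.152 (p = 0.446, adjusted p = 0.826), which became 0.187 without those pools. LOC112441492 had a rho of 0.0165 with DUXA (permutation p = 0.935, adjusted p = 0.988).

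Leaving out pool 9 changed these ranks little. Spearman rho was then 0.433 for KLF17, 0.448 for ARGFX and 0.270 for ZSCAN4, so the shared direction did not rest on the pool with the highest DUXA. The share of retained genes with a higher rho to DUXA was 1.11% for KLF17, 1.55% for ARGFX and 12.9% for ZSCAN4. KLF17 and ARGFX were thus near the upper end of all genes.

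**Figure D3:**
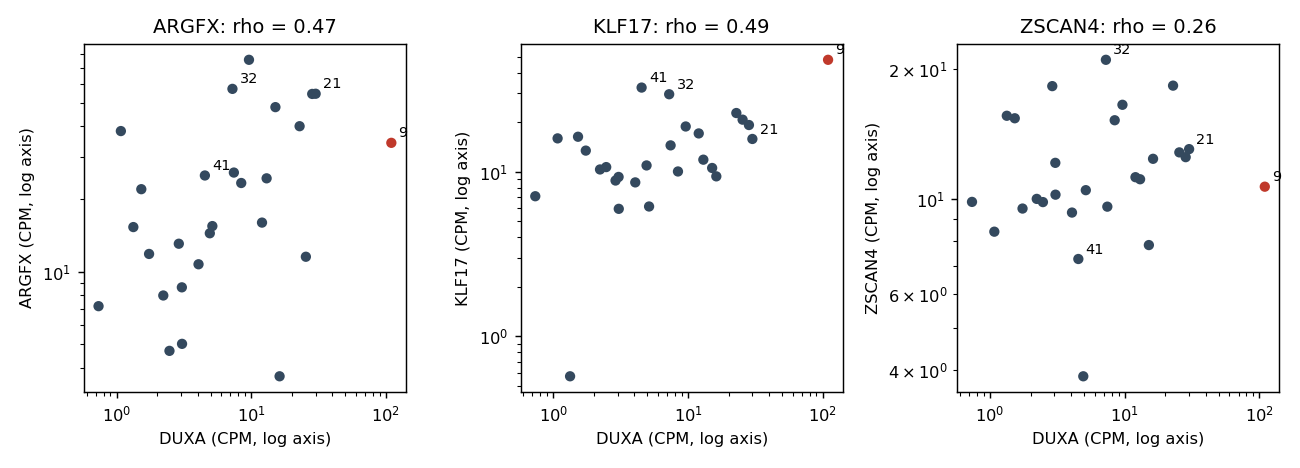
Abundance of ARGFX, KLF17 and ZSCAN4 against DUXA (CPM, log axes) in the 27 blastocyst pools, with Spearman rho above each panel. Points are pools, pool 9 is red, and pools 9, 21, 32 and 41 are numbered. Spearman rho was 0.47, 0.49 and 0.26, and pool 9 lies at the top of the KLF17 panel but inside the range of the other panels.

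The retained genes of the genome activation list did not follow DUXA as a list. Listed genes without a row or under the filter, such as KDM4D, are not covered by this. Of the 44 retained genes, 20 had a positive rho and 24 a negative one, with a median of -0.03 beside 0.01 over all retained genes, and 0 passed at an adjusted p of 0.05. Before adjustment 3 were at or under 0.05, with NFYA (rho 0.554, adjusted p = 0.424) and DPPA4 (rho 0.386, adjusted p = 0.597) positive and KLF5 (rho -0.54, adjusted p = 0.435) negative. That is 3 of 44 genes beside 8.24% of all retained genes. DPPA2, DPPA3 and OTX2, further genes of early embryos, had rho values of -0.06, -0.10 and 0.03.

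**Figure D4:**
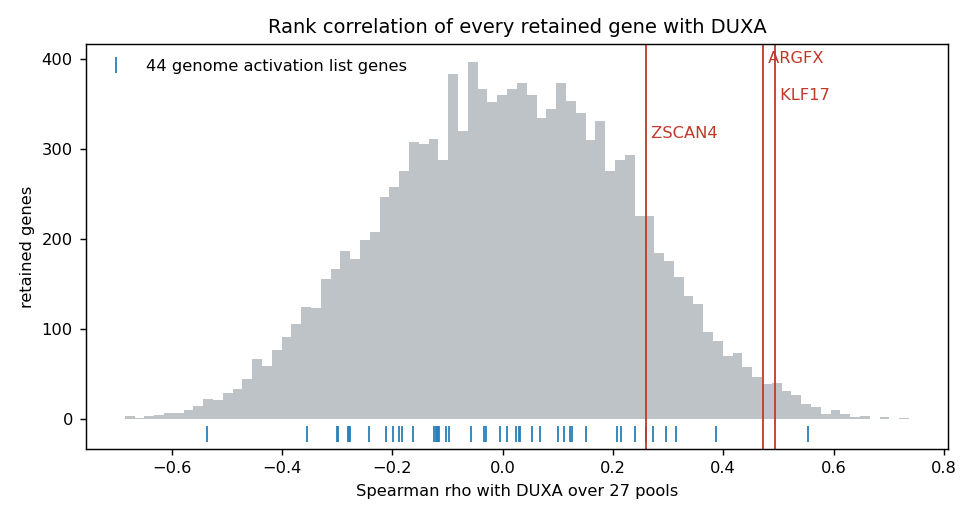
Histogram of Spearman rho with DUXA over 27 pools for the 12309 other retained genes, with the number of genes on the vertical axis. Red lines mark KLF17 (0.49), ARGFX (0.47) and ZSCAN4 (0.26), and blue ticks below the axis mark the 44 retained genes of the genome activation list, which lie on both sides of 0.

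The genes most like DUXA in their ranks over the 27 pools were LOC538435 (rho 0.737), CCDC59 (0.699), C3H1orf54 (0.691), TRIM64 (0.664), LOC100140788 (0.660), BAG3 (0.655), CEBPG (0.642), KANSL2 (0.641), DPH3 (0.625) and ZNF81 (0.621). The adjusted p was 0.246 for LOC538435 and higher for the rest. LOC538435 was between 2.28 and 179 CPM, and like DUXA it was highest in pool 9. TRIM64, a tripartite motif gene, was between 0.170 and 58.7 CPM and ranked 3 in pool 9. LOC538435 was also among the 3 genes most like KLF17 (rho 0.727), with the testis bromodomain gene BRDT (0.787) and the apoptosis gene PMAIP1 (0.697), and all 3 were highest in pool 9. The lowest rho values to DUXA were those of the glucose transporter gene SLC2A1 (-0.68), TMEM203 (-0.67), HAGHL (-0.67), the nucleoside transporter gene SLC29A2 (-0.66) and FOXRED1 (-0.65). SLC2A1 had its lowest value of all pools in pool 9, at 123 CPM beside a median of 266 CPM.

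By ranks the pair of members that moved together most closely was ARGFX and KLF17, while by Pearson correlation it was DUXA and KLF17. The rho of ARGFX and KLF17 was 0.641 (permutation p = 0.00048) and lay between 0.612 and 0.705 when each pool was left out in turn. Adjusted over the 12309 genes tested against ARGFX, of which 351 (2.85%) passed, the p was 0.0325, and adjusted over those tested against KLF17, of which 0 (0%) passed, it was 0.333, so the call depended on the gene tested from. By Pearson correlation r was 0.485 (permutation p = 0.00858), the adjusted p was 0.0907 and 0.271, and leaving out pools 12 and 32 gave an r of 0.429. ZSCAN4 had a rho of 0.269 with ARGFX (permutation p = 0.174, adjusted p = 0.465) and 0.150 with KLF17 (permutation p = 0.452, adjusted p = 0.877). Against ZSCAN4 likewise 0 genes passed (0%), and before adjustment 893 genes (7.25%) were at or under 0.05 with KLF17 and 947 (7.69%) with ZSCAN4. By Pearson correlation 0 passed with either, and 1574 (12.8%) and 1217 (9.89%) were at or under 0.05 before adjustment.

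Among the 4 retained members, genes passed against ARGFX alone, where 2436 genes (19.8%) were at or under 0.05 before adjustment. By Pearson correlation 640 genes (5.2%) passed and 2674 (21.7%) were at or under 0.05 before adjustment. Of the 351 genes 269 were positively and 82 negatively related. With CPM from trimmed mean of M values (TMM) library sizes 267 genes passed, 113 positively and 154 negatively related. The median rho of all genes with ARGFX fell from 0.10 to 0.01 between these scalings. The most similar genes were SPDL1 (rho 0.826), which acts at the mitotic spindle, the Hippo pathway gene SAV1 (0.810) and the autophagy gene MAP1LC3B (0.800), each with an adjusted p of 0.00586. Of the 44 other genome activation genes 34 had a positive and 10 a negative rho, while 64.2% of all genes were positive. By Spearman correlation 2 of the 44 passed, beside 2.85% of all genes, the demethylase genes KDM6A (rho 0.658, adjusted p = 0.0262) and KDM4A (rho 0.620, adjusted p = 0.0386). By Pearson correlation 6 passed, beside 5.2% of all genes, as CCNA1, EIF1AX and HSPA8 were added on the positive and SLC34A2 on the negative side. Among trophectoderm markers, the keratin genes KRT18 (rho -0.68, adjusted p = 0.0163) and KRT8 (rho -0.65, adjusted p = 0.0263) passed, as did TFAP2A by Pearson correlation alone, and all 9 markers had a negative rho with a median of -0.40. Within the 13 pools above the median total count 15 genes passed, and within the other 14 pools 0 did.

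The trophectoderm markers were also negatively related to the other members. Spearman rho was negative for 9 of 9 markers with KLF17 (median -0.40), 9 of 9 with ZSCAN4 (median -0.34) and 8 of 9 with DUXA (median -0.28), with 0 at an adjusted p of 0.05 in each and 6, 3 and 1 at or under 0.05 before adjustment. Over all genes, rho was positive for 55.3%, 54.6% and 51.8%, and 7.25%, 7.69% and 8.24% were at or under 0.05 before adjustment. The summed abundance of the list was between 16927 and 40716 CPM, most of it from KRT8 and KRT18. Over 32 relations of the 4 retained members with depth and 7 marker sums, 2 passed. Only the relations of DUXA had been planned, so the 2 that passed were not. ARGFX fell as trophectoderm transcripts rose (rho -0.64, permutation p = 0.00034, adjusted p = 0.0109; r -0.70, permutation p = 6e-05, adjusted p = 0.00192), with an r of -0.58 when pools 12 and 31 were left out. KLF17 did so as well (rho -0.57, permutation p = 0.00243, adjusted p = 0.0389; r -0.54, permutation p = 0.00464, adjusted p = 0.0678), with an r of -0.58 when these pools were left out. With TMM library sizes the adjusted p was 0.00096 for ARGFX and 0.0890 for KLF17. Without KRT8 and KRT18 in the list, rho was -0.36 for ARGFX (adjusted p = 0.226) and -0.64 for KLF17 (adjusted p = 0.0141). The ARGFX relation therefore passed only with the keratins in the list, and the KLF17 relation passed with or without them.

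**Figure D5:**
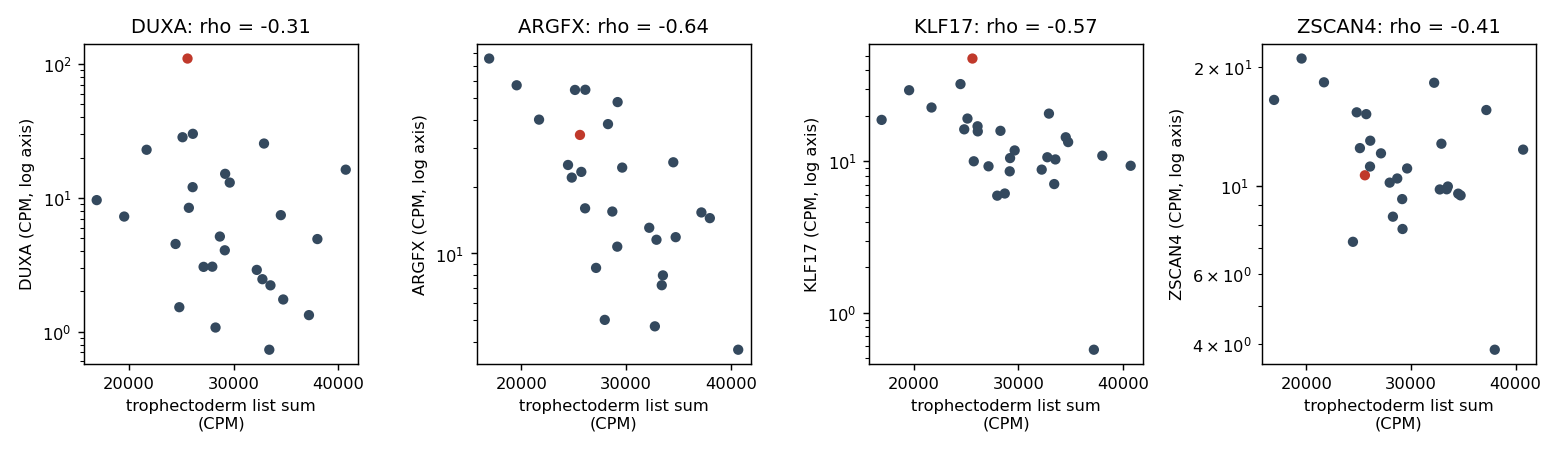
Abundance of DUXA, ARGFX, KLF17 and ZSCAN4 (CPM, log vertical axis) against the summed abundance of 9 trophectoderm markers (CPM) in the 27 blastocyst pools, with Spearman rho above each panel. Points are pools and pool 9 is red. Spearman rho was -0.31, -0.64, -0.57 and -0.41.

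DUXA itself was not shown to follow depth or another lineage. Its rho with the total count was 0.313 (permutation p = 0.112, adjusted p = 0.326; r 0.217, permutation p = 0.279, adjusted p = 0.470), and the r fell to 0.0845 when the 2 deepest pools were left out. Without pool 9, rho with the total count was higher, at 0.417 (permutation p = 0.0357, adjusted p = 0.153). With the summed maternal transcripts rho was -0.43 (permutation p = 0.0258, adjusted p = 0.145; r -0.44, permutation p = 0.0214, adjusted p = 0.0996), with an r of -0.59 when pools 1 and 21 were left out. All 9 retained oocyte markers had a negative rho with DUXA, with a median of -0.34, while 51.8% of all genes were positive. At an adjusted p of 0.05, 0 passed, and 2 were at or under 0.05 before adjustment, beside 8.24% of all genes. With KLF17 all 9 were negative too (median -0.29), while 7 were with ARGFX and 4 with ZSCAN4. For DUXA with trophectoderm, epiblast, hypoblast, interferon tau, cumulus and leukocyte sums, rho was between -0.31 and 0.225, and the adjusted p was at least 0.326. Y-linked transcripts separated the pools into clusters, with 18 pools above 10 CPM of them, so no correlation over all pools is given. DUXA spanned 0.734 to 109.7 CPM in these 18 pools (median 5.03 CPM) and 1.08 to 28.4 CPM in the other 9 pools (median 8.42 CPM), so the ranges overlapped. ARGFX spanned 3.68 to 57.3 CPM in the 18 pools (median 14.9 CPM) and 5.02 to 75.6 CPM in the 9 (median 38.3 CPM). Medians in the 18 and the 9 pools were 11.4 and 15.9 CPM for KLF17 and 10.9 and 12.1 CPM for ZSCAN4. Differences between these 2 sets of pools were not tested.

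Genes near DUXA were set beside it, a choice made after its values were seen. Within 500 kb of DUXA on chromosome 18 lie 37 genes of the table, of which 22 were retained, many of them zinc finger genes. The nearest retained genes were ZNF805, 15.0 kb away, and ZIM3, 16.6 kb away on the other side at 64374169 to 64381721. ZIM3, a zinc finger gene of the PEG3 neighbourhood, had a median of 2.44 CPM and its highest value, 18.3 CPM, in pool 9, a ratio of 7.68 to the other pools. Its rho with DUXA was 0.576 (adjusted p = 0.424), and 0.526 without pool 9. ZNF805 had a ratio of 0.534, and the Aurora kinase gene AURKC, 45.1 kb away and inside the span of ZNF805, a ratio of 0.674. Reads of these overlapping genes may not be fully separated. ZIM3 was the only retained neighbour above a ratio of 2, and the median ratio of the 22 genes was 0.674. Among neighbours under the filter, LOC100141128 (62.8), LOC789803 (5.43) and LOC100335593 (2.50) were also above 2. They had 3.10, 1.31 and 0.688 CPM in pool 9 and medians of 0.0647, 0.252 and 0.289 CPM. The others under the filter were below 2 or had no ratio. The median rho of the 22 retained genes with DUXA was -0.06. Among the retained neighbours, high abundance in pool 9 was therefore seen at ZIM3 and not along the region as a whole.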

How the data were processed

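SMART-Seq v4 3’ DE libraries were sequenced. Trimming by fastp, mapping to ARS-UCD2.0 by STAR and counting by featureCounts were done by the authors, whose deposited values are raw counts without normalization. Versions and the annotation release are not given in the sources used here. For each of the 27 pools, counts were scaled to CPM by the column total. Priming at the 3’ end means that CPM was compared between pools and not between genes. Retained were 12310 genes, those reaching 1 CPM in 12 or more pools. Gene positions came from the RefSeq table of ARS-UCD2.0, matched by symbol for 4 of the 5 members; the entry named ZSCAN4 there belongs to another row of the counts.

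The labels assign no treatment or replicate to pools, and nothing says whether pools share parents beyond the bull, so p-values concern these pools only. Permutations shuffled all pools freely, as if any pool could take the place of any other. According to the paper, however, the pools differed in treatment and in fertilization replicate. If pools sharing a treatment or replicate resemble each other, the p-values may be too small, also for the ARGFX and KLF17 relations that passed. This was not tested. No batch is given, so relations were not recomputed within batches; they were recomputed in pools above and at or below the median total. Correlations were tested by 100000 two-sided permutations of the pools and adjusted by Benjamini-Hochberg over all retained genes, or over 32 relations for depth and marker sums. The smallest p possible was 1e-05. Pearson correlations used log2(CPM + 1).

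Members and lists were chosen with earlier results of these data known. The plan was to name the members and list genes past the adjusted threshold against DUXA (0 genes) or with the 5 highest ratios in pool 9. It also covered the 10 highest and 5 lowest rho to DUXA, the 3 highest rho to each other member and the 10 highest ratios in pool 9. KDM4D, DUXB, LOC112441492, the genes lowest in pool 9 and the neighbours were added after their values were seen. List genes named at an unadjusted p of 0.05 or for their relation to other members were outside the plan, as were DPPA3 and OTX2. Alternatives covered scaling (TMM or DESeq2 size factors), the filter, the correlation, the pseudocount and the pools. A marker gene is not reported here. Scripts were tested on simulated data. Software was Python 3.11.15 (scipy 1.17.1, numpy 2.4.6, pandas 2.3.3) and R 4.3.3 (DESeq2 1.42.0, edgeR 4.0.16).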

Additional observations from a re-analysis of the deposited data

How the results depend on the processing

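No paired analysis was possible because the treatment and replicate of each pool were not assigned. Among the 10 alternatives tried for each, rho of DUXA with KLF17 stayed positive (0.433 to 0.703, adjusted p from 0.231 to 0.876), as did that with ARGFX (0.244 to 0.676, adjusted p from 0.346 to 0.877) and ZSCAN4 (0.0242 to 0.489, adjusted p from 0.775 to 0.992), and 0 genes passed against DUXA in each. Pools above the median total gave the highest rho for all 3.

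The 351 genes that passed against ARGFX became 148 without a filter, 640 by Pearson correlation, 677 with a pseudocount of 0.1, 15 in pools above the median total and 0 in the others, where fewer pools entered. The relation of ARGFX and KLF17 no longer passed without a filter (rho 0.641, adjusted p = 0.0603), by Pearson correlation (0.485, adjusted p = 0.0907), with a pseudocount of 0.1 (0.435, adjusted p = 0.137), in pools above the median total (0.731, adjusted p = 0.190) or in the others (0.481, adjusted p = 0.786). With TMM it passed (0.617, adjusted p = 0.0440), as it did with DESeq2 size factors and a filter of 0.5 CPM. The ratio of DUXA in pool 9 was 18.4 with CPM + 1, which shrinks ratios by construction. That of ZSCAN4 was 1.41 with the reads of LOC112441492 added, a choice made after seeing the data, and so turned from below to above 1.

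The relation of KLF17 to trophectoderm markers did not pass by Pearson correlation, without pool 9 (rho -0.54, adjusted p = 0.0894), with TMM or with DESeq2 size factors (rho -0.53, adjusted p = 0.0827), and the cause was not tested. Relations near 0 changed sign: DUXA with leukocyte markers without pool 9 (-0.0311), ARGFX with interferon tau without pool 9 (-0.00991), with TMM (-0.00794) and with DESeq2 size factors (-0.00672), KLF17 with epiblast markers with TMM (-0.0281) and DESeq2 size factors (-0.0299), with cumulus markers without pool 9 (0.0250), and by Pearson correlation with the total count (0.0914) and interferon tau (0.244). Low read numbers limit LEUTX and KDM4D, which most pools held at 3 reads or fewer. For LEUTX the deepest pool, pool 23, had 0 reads, while pools 9 and 45, below the median total, had 87 and 40 reads. Of the relations with depth and marker sums, only those of DUXA were planned. Those of ARGFX, KLF17 and ZSCAN4, the scaling alternatives of every such relation, and the list without keratins were chosen after seeing the data.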

Other observations

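Of the leukocyte markers, the pan-leukocyte gene PTPRC had 6.75 CPM in pool 9, a ratio of 2.54 to the median of the other pools, and the monocyte gene CD14 had 5.03 CPM, a ratio of 3.07. The lysozyme gene LYZ had a ratio of 2.86. Ratios of 2 or more were seen for 7.45% of retained genes. The sum of cumulus and granulosa markers in pool 9, 11.2 CPM, ranked 20 of 27.

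The genes most like ZSCAN4 were MBTD1 (rho 0.766, adjusted p = 0.123), the cilium gene TTC21B (0.725, adjusted p = 0.164) and ANKRD49 (0.706, adjusted p = 0.164). In pool 9 they ranked 20, 21 and 6. None of them was among the genes most like DUXA, ARGFX or KLF17. Of the genome activation genes, 1 of 44 was at or under 0.05 before adjustment with ZSCAN4 (7.69% of all genes were), the general transcription factor gene SP1 (rho 0.415, adjusted p = 0.611), and 0 passed after it. With KLF17, 9 of the 44 were at or under 0.05 before adjustment beside 7.25% of all genes, and 0 passed after it, with 22 positive and 22 negative.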
